A study of Arabidopsis thaliana with 12 samples.

Results

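A set of 62 Arabidopsis genes was described whose transcript signal lay higher in every array of the psao mutant than in any array of the wild type (WT). They were chosen on that very comparison. Log2 intensities were quantile normalized over 12 arrays, and a probe paired with 1 gene was taken where it had at least 4 values in each genotype and its lowest psao value exceeded its highest WT value. This held for 72 of 628 tested 1-gene probes, and 10 of these loci were left out, which gave the 62 among 3439 probes on the array. Because the psao and WT values chose the genes, every level and difference below is a description and carries no test.

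The psao mutant lacks PSI-O, a protein of photosystem I, and was set against WT. Both are of ecotype Columbia 0, and each has 6 arrays of total RNA. The allele, tissue, growth conditions and array preparation are not given in the sources used here, nor whether arrays came from separate plants or repeat the same RNA, so the spread between arrays may be technical. No tissue is named, so no tissue marker was checked, and 0 probes were annotated with the PSAO gene, so the genotype labels were not checked on its transcript. In bulk RNA, fewer cells of a type and less RNA per cell cannot be told apart.

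Photosystem I is the thylakoid complex that uses light to move electrons from plastocyanin to ferredoxin. PSI-O is one of its small membrane-spanning subunits and lies near PSI-H and PSI-L, on the side where mobile light-harvesting complex II docks during state transitions. Most chloroplast proteins are encoded in the nucleus, and the few genes left in the organelle depend on imported RNA-binding proteins for their expression.

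The deposited intensities are relative within an array, whose brightest probe stands at 100. Array medians lay between 0.198 and 0.273 in psao and between 0.0970 and 0.195 in WT. WT arrays 1 and 2 had the most zeros, 14.5% and 15.2%, against 4.22% to 7.33% in the other 10 arrays. Zeros have no log and were left out. Levels below are quantile-normalized log2 intensities, compared only within a probe. Within a genotype, deviations from the mean correlated between arrays 1 and 2, between 3 and 4 and between 5 and 6, with r from 0.29 to 0.47. These 3 couples were seen in earlier results of these data, and the labels do not name them. Differences are psao minus WT, in log2 units, with the SE of a limma fit over all probes that takes the 12 arrays as independent. With each couple averaged, the SE was 0.848 to 2.04 times as large over the 59 genes with values, and over 1.5 times as large in 30 of them. With each couple as a random block, whose estimated correlation was 0.70, it was a median of 1.36 times as large over the 62, with a range from 1.07 to 2.15 times.

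The 62 genes differed from WT by a median of 1.39 log2 units, 2.63-fold, with a range from 0.36 to 3.27. The median difference was -0.04 over all 3187 tested probes and 0.03 over the 628 with 1 gene. A total of 47 genes were at least 2-fold higher in psao, 7 of them at least 4-fold, whereas 15 were less than 2-fold higher. Of all tested probes 15.4%, and of the 1-gene probes 16.6%, were at least 2-fold higher. In limma 60 of the 62 passed an adjusted p of 0.05, where 14.8% of all tested probes and 15.9% of 1-gene probes passed as higher in psao and 29.8% of all probes passed in either direction. With each couple as a random block 36 of the 62 passed, against 5.9% of all probes, and with each couple averaged 4 of 59 passed, against 1.71%. Since the same values chose the genes, nothing is read from these counts. With all arrays taken as independent, AT4G33760 and IYO did not pass. Full separation with psao on top was found in 10.2% of all tested probes and 11.5% of the 1-gene probes, and with psao below in 9.51% and 5.89%.

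The median level of the 62 genes on an array lay between -0.75 and -0.52 in the 6 psao arrays and between -2.01 and -1.69 in the 6 WT arrays. It was lowest on arrays 3 and 4 in psao and on arrays 1 and 2 in WT. These medians follow the same probes from array to array, except that a gene deposited at 0 drops out of the median of that array. This applies mostly to WT arrays 1 and 2. All 62 had a signal on all 6 psao arrays. In WT 51 had a signal on all 6 arrays, 8 on 5 and 3 on 4, and 13 of the 14 WT zeros fell on arrays 1 and 2. For comparison, 2507 of the 3187 tested probes had a signal on all 6 arrays of both genotypes. The median SD of the genes was 0.28 log2 units in psao and 0.45 in WT, against 0.46 and 0.52 over all tested probes. The spread was wider in WT in 45 of the 62 genes (72.6%) and in 57% of all tested probes. The rule favours a small spread within a genotype, so nothing is read from these values.

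The tables used here give a name beyond the locus to 7 of the 62 genes, and these are described first by what they do. AT5G58330 is the NADP-dependent malate dehydrogenase of the chloroplast (NADP-MDH), an enzyme that thioredoxin activates in the light and that converts excess reducing power into malate. Its lowest, median and highest levels were 1.08, 1.44 and 1.63 in psao and -0.27, 0.16 and 0.50 in WT. No arrays overlapped, WT arrays 1 and 2 were the lowest, and it was 2.39-fold higher in psao, a difference of 1.26 ± 0.19 (SE). Its deposited median was 2.75 in psao and 1.10 in WT, in units of the brightest probe at 100.

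The rule makes both named genes of organelle gene expression higher in psao, and only the sizes of their differences, which were unequal, could vary. AT5G55580 (mTERF9), of the mTERF family of organelle nucleic acid-binding proteins, stood at 0.20, 0.37 and 0.56 in psao and -2.01, -1.02 and -0.71 in WT. The psao arrays lay close together, 0.91 log2 units above the highest WT array, and the difference of 1.59 ± 0.22 was 2.31 for arrays 1 and 2, 1.27 for arrays 3 and 4 and 1.18 for arrays 5 and 6. OTP70 (organelle transcript processing 70), a pentatricopeptide repeat protein that acts in the splicing of a plastid transcript, had levels of -1.41, -1.19 and -0.90 in psao and -2.36, -1.99 and -1.70 in WT. Its difference was smaller, 0.78 ± 0.17, with a gap of 0.29 between the genotypes.

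Of calcium signalling, CML41, a calmodulin-like calcium-binding protein, had -2.62, -2.22 and -1.61 in psao and -4.08, -3.50 and -2.92 over the 5 WT arrays with a signal, 2.51-fold higher in psao. Its difference was 1.67 for arrays 1 and 2, 1.96 for arrays 3 and 4 and 0.57 for arrays 5 and 6. ATSIK, for which no role is given here, lay at -0.72, -0.38 and 0.01 in psao and -1.63, -1.34 and -0.96 in WT. Its difference of 1.01 ± 0.18 was nearly the same in all couples of arrays, and its genotypes overlapped where arrays were centred on their medians.

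The 2 named genes of nuclear transcription rested on uneven WT arrays. RAP74, the large subunit of the general transcription factor TFIIF, gave -2.71, -2.41 and -1.93 in psao and -3.15, -3.05 and -2.80 over the 4 WT arrays with a signal. WT arrays 1 and 2 were deposited at 0 for RAP74, the difference was 0.66 ± 0.20, and with an offset that keeps zeros it was 1.32. IYO (MINIYO), which binds RNA polymerase II and acts as cells begin to differentiate, stood at -1.56, -1.15 and -0.76 in psao and -8.87, -1.83 and -1.61 in WT. WT array 1, deposited at 0.00091, alone lay far below the rest. The difference of 1.82 ± 1.07 was 0.63 without that array, and 0.05 log2 units separated the genotypes.

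The other 55 genes are paired with their locus only, and no role is given for them. The gap between the lowest psao array and the highest WT array, the quantity the genes were chosen on, had a median of 0.35 over the 62. It was at least 1 in 3 genes, at least 0.5 in 21 and below 0.1 in 11.

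AT5G46560 (probe 2712) had the widest gap, 2.01. It reached 0.49, 0.79 and 1.07 in psao, against -2.62, -2.02 and -1.51 over 5 WT arrays. WT array 2 was deposited at 0 for AT5G46560. The difference was 2.78 ± 0.22, and 3.15 with an offset before the log that keeps this zero. Its deposited median was 1.81 in psao and 0.222 in WT. AT3G06870 (probe 3604) stood at 0.31, 0.47 and 0.63 in psao and at -3.42, -1.44 and -0.89 in WT. The psao arrays were tight, whereas WT arrays 1 and 2 lay far below the other 4 WT arrays, and the difference was 3.83 for arrays 1 and 2, 1.64 for arrays 3 and 4 and 1.73 for arrays 5 and 6. AT1G72020 (probe 2455) was even across arrays, with -1.07, -0.84 and -0.52 in psao and -3.11, -2.84 and -2.22 in WT. Its difference of 1.97 ± 0.19 was 1.98 for arrays 1 and 2, 2.02 for arrays 3 and 4 and 1.90 for arrays 5 and 6.

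AT1G74070 (probe 2823) had 0.31, 0.45 and 0.97 in psao and -1.07, -0.73 and -0.64 in WT. WT array 2 was the low one and psao arrays 1 and 2 the high ones, with a difference of 1.35 ± 0.17. AT3G57440 (probe 1868) gave -0.74, -0.41 and -0.20 in psao and -2.30, -1.997 and -1.66 in WT. All couples showed a difference of similar size, 1.57 ± 0.17 over all arrays. AT5G44000 (probe 1072) stood at -2.39, -1.96 and -1.51 in psao and -4.06, -3.47 and -3.28 in WT, 3.14-fold higher in psao. For AT2G30100 (probe 3678) the levels were -0.01, 0.20 and 0.60 in psao and -2.36, -1.70 and -0.88 in WT. Here WT arrays 1 and 2 were the highest of WT, and the difference was 1.42 for arrays 1 and 2, 1.74 for arrays 3 and 4 and 2.32 for arrays 5 and 6.

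AT5G15280 (probe 4186) gave -2.46, -2.11 and -1.82 in psao and -4.59, -3.84 and -3.27 over 5 WT arrays. It was 3.29-fold higher in psao. AT3G19120 (probe 2409) reached -1.11, -0.78 and -0.72 in psao against -3.69, -3.16 and -1.90 in WT. Again WT arrays 1 and 2 were high in WT, and the difference was 1.14 for arrays 1 and 2, 2.47 for arrays 3 and 4 and 2.60 for arrays 5 and 6. AT5G42680 (probe 1040) had 0.11, 0.33 and 0.77 in psao and -1.92, -1.41 and -0.60 in WT, a difference of 1.70 ± 0.25. AT1G35510 (probe 473) had levels of 0.86, 1.36 and 1.47 in psao and -0.64, -0.14 and 0.21 in WT. Its difference was smallest in arrays 5 and 6, 0.73, and 1.36 ± 0.19 overall.

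**Figure D1:**
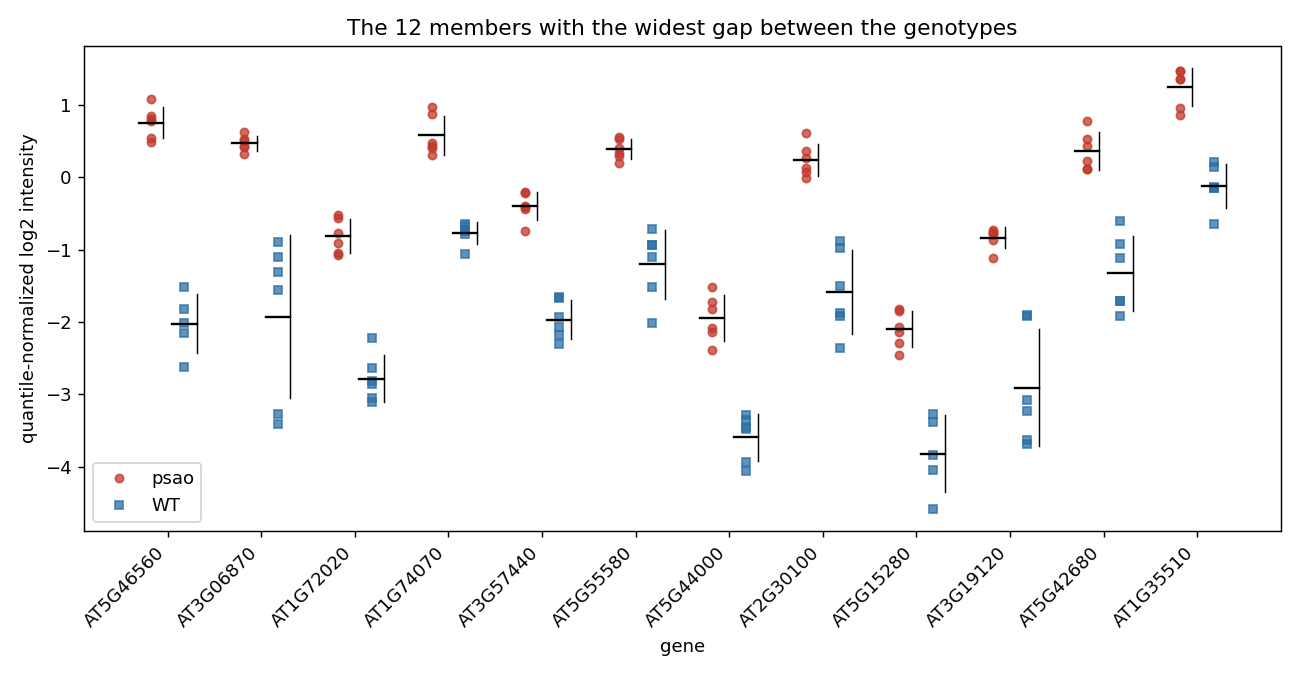
Quantile-normalized log2 intensity (y axis) of the 12 genes with the widest gap between the genotypes, with psao left of WT. Each point is an array, horizontal lines are means and vertical lines 1 SD. AT5G46560 shows the widest gap, 2.01, and in AT3G06870 WT arrays 1 and 2 lie far below the other 4 WT arrays.

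At the other end, AT2G31800, AT1G74730 and IYO had the narrowest gaps, 0.01, 0.03 and 0.05. AT2G31800 gave -2.78, -1.81 and -1.35 in psao and -5.99, -3.32 and -2.80 in WT, and psao array 2 barely cleared WT array 1. Its difference was 0.40 for arrays 1 and 2, 3.45 for arrays 3 and 4 and 1.56 for arrays 5 and 6. AT1G74730 had -1.70, -1.07 and -0.76 in psao and -2.74, -1.81 and -1.72 in WT, 1.87-fold higher in psao. The genotypes of AT2G31800, AT1G74730 and IYO overlapped with cyclic loess and with the offset. Those of AT1G74730 and IYO also overlapped with median centring.

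AT4G39760, AT4G19900 and AT4G16410 carried a strong probe signal in WT, which says nothing of their transcript levels relative to other genes. AT4G39760 had 2.12, 2.28 and 2.67 in psao and 1.33, 1.75 and 2.01 in WT, 1.55-fold higher in psao. Under median centring its difference of 0.63 was 0.08, and its genotypes overlapped there, with cyclic loess and with the offset. AT4G19900 reached 2.90, 3.18 and 3.44 in psao and 0.59, 1.42 and 2.82 in WT. WT arrays 5 and 6 were high and arrays 1 and 2 low, the deposited median was 9.01 in psao and 2.63 in WT, and AT4G19900 was the 1 gene of the 62 whose genotypes overlapped with values as deposited. Its difference of 1.57 was 1.01 under median centring. AT4G16410 stood at 1.11, 1.63 and 1.70 in psao and 0.49, 0.80 and 1.06 in WT. Its difference of 0.68 was 0.27 under median centring, where the genotypes of AT4G39760, AT4G19900 and AT4G16410 all overlapped.

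Of the remaining 39 genes, 4 were at least 4-fold higher in psao: AT5G40030, AT5G11010, AT1G27610 and AT5G39980. AT5G40030 had the largest difference of the 62, with -3.73, -2.17 and -1.74 in psao and -8.01, -5.33 and -4.04 in WT. WT arrays 5 and 6 lay lowest, and the difference of 3.27 ± 0.62 was 2.48 for arrays 1 and 2, 1.69 for arrays 3 and 4 and 5.65 for arrays 5 and 6. With the offset it was 2.01 and the genotypes overlapped. AT5G11010 gave -3.11, -2.67 and -2.12 in psao and -9.35, -4.21 and -3.59 over 5 WT arrays. WT array 1, deposited at 0.00064, was the lowest by far, and the difference of 2.71 ± 0.89 was 1.69 without it and 1.49 with the offset.

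AT1G27610 had -3.21, -2.18 and -1.78 in psao and -6.15, -4.63 and -3.55 in WT. Its difference was 2.55 for arrays 1 and 2, 1.92 for arrays 3 and 4 and 2.57 for arrays 5 and 6, and the genotypes overlapped with the offset. AT5G39980 showed -2.04, -1.48 and 0.63 in psao and -3.47, -3.10 and -2.57 in WT. Psao arrays 1 and 2 stood far above the other 4 psao arrays, and the difference of 2.08 ± 0.50 was 1.16 with arrays 3 to 6 alone.

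A further 10 genes were between 3.05-fold and 3.80-fold higher: AT4G08940, AT2G37750, AT4G09620, AT1G51080, AT5G48830, AT4G32060, AT5G11650, AT5G64150, AT5G05400 and AT5G17630. In 8 of these the difference was largest in arrays 1 and 2. It reached 3.81 for AT2G37750 there, and AT5G11650 differed by 3.04 for that couple but by 1.03 for arrays 3 and 4 and 0.97 for arrays 5 and 6. AT4G32060 had levels of 1.43, 2.32 and 2.63 in psao and 0.00, 0.18 and 1.11 in WT.

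Another 15 were between 2.11-fold and 2.99-fold higher: AT2G28540, AT3G56810, AT1G76220, AT1G64430, AT3G61870, AT3G44570, AT3G50270, AT4G21170, AT1G67800, AT3G04650, AT2G46850, AT5G52810, AT2G32470, AT1G24040 and AT3G52550. AT2G32470 and AT3G52550 had a signal on 4 WT arrays, with arrays 1 and 2 at 0. With arrays 3 to 6 alone the difference of AT1G76220 was 0.52 against 1.42, that of AT2G28540 1.03 against 1.58, that of AT1G67800 0.89 against 1.33 and that of AT3G50270 0.89 against 1.35.

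The last 10 were between 1.28-fold and 1.98-fold higher: AT2G11270, AT1G51550, AT3G47650, AT2G44760, AT1G50880, AT4G24750, AT5G52530, AT2G38570, AT4G13220 and AT4G33760. AT4G33760 had the smallest difference of the 62, with -0.84, -0.71 and -0.55 in psao and -1.17, -1.03 and -0.98 in WT, 2 tight groups that lay 0.13 apart. Under median centring its difference was 0.06. The genotypes of AT4G33760 and of AT4G24750 overlapped with median centring, with cyclic loess and with the offset. Median centring also lowered the difference by over 1.5 times in AT2G11270 (0.57), AT3G47650 (0.54), AT2G44760 (0.55), AT1G50880 (0.42), AT4G24750 (0.50), AT5G52530 (0.38) and AT4G13220 (0.18).

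**Figure D2:**
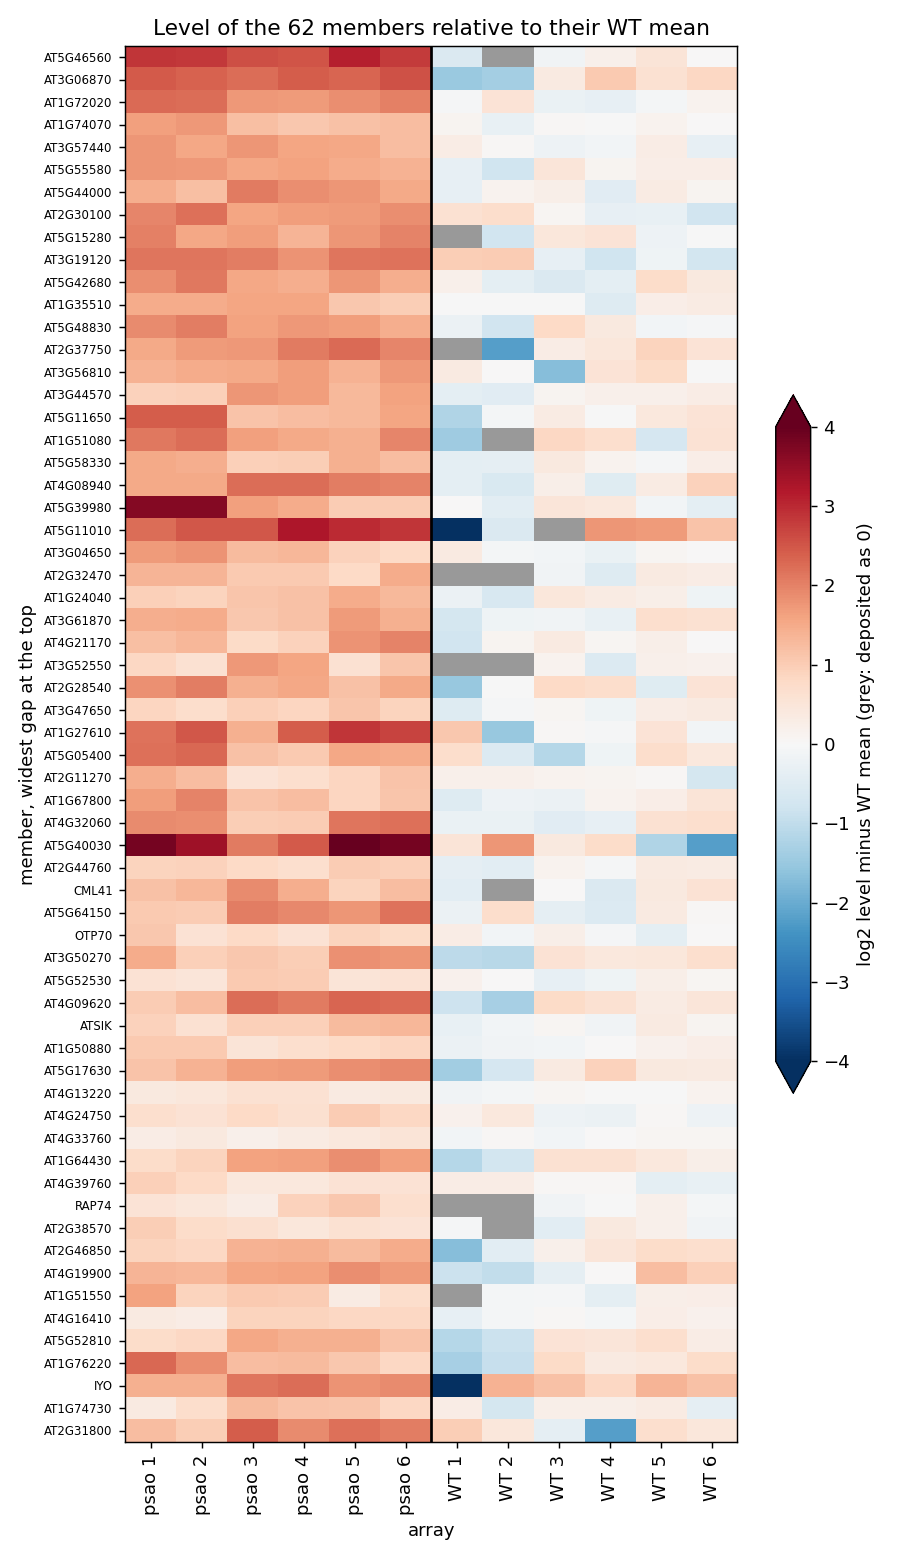
Level of each of the 62 genes (rows, widest gap at the top) on each array (columns, psao left of WT) as log2 difference from that gene's WT mean, red above and blue below, with grey where the deposited value was 0. All psao columns are red, and 13 of the 14 grey cells lie in WT arrays 1 and 2.

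**Figure D3:**
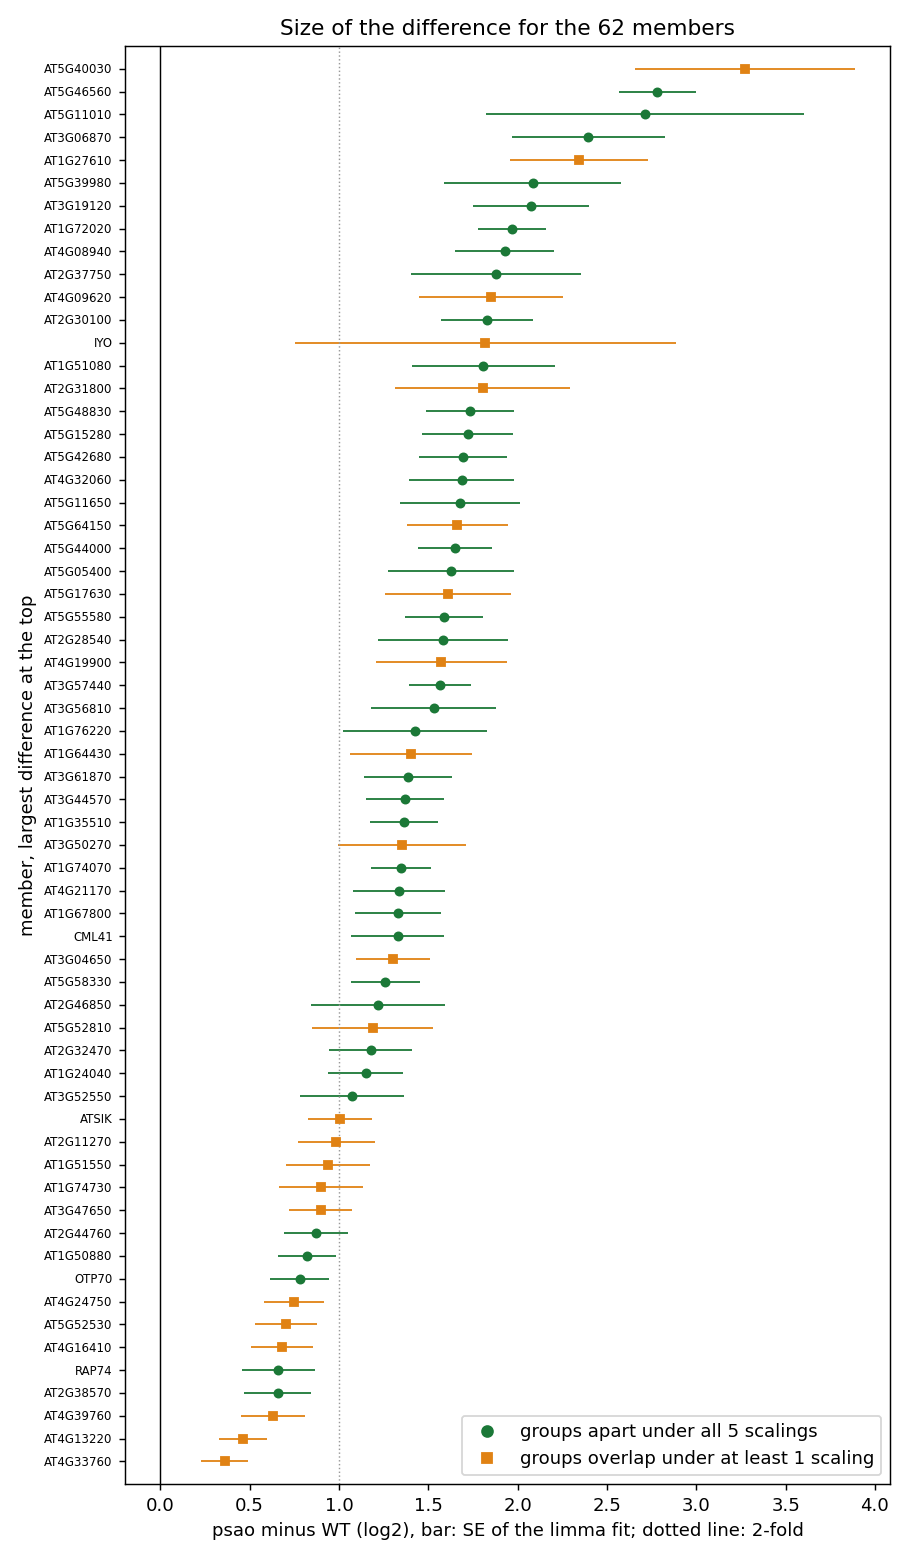
Difference psao minus WT in log2 units (x axis) of the 62 genes, largest at the top, with the SE of the limma fit as bars. Green circles are the 39 genes whose genotypes stayed apart under all 5 scalings, and orange squares are the rest. The 5 include quantile normalization, the scaling of the rule. AT5G40030 is at the top (3.27) and AT4G33760 at the bottom (0.36).

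Just outside the set lay the 3 genes with the narrowest overlap. AT3G54680 had -3.76, -2.94 and -2.58 in psao and -5.46, -3.99 and -3.74 in WT, a gap of -0.01. AT2G39360 had -0.10, 0.17 and 0.20 in psao and -0.91, -0.65 and -0.09 in WT, a gap of -0.02. Cpn60beta3, a subunit of the chaperonin that folds proteins in plastids, had -2.18, -1.84 and -1.64 in psao and -2.58, -2.30 and -2.16 in WT, a gap of -0.02. Their differences of 1.12, 0.73 and 0.43 lay within the range of the 62 genes.

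The couples differed in the size of the difference. The rule makes every gene higher in psao in each couple, and only the size could vary. The median difference of the genes was 1.79 for the first couple (59 genes with values), 1.16 for the next and 1.15 for the last. Over all tested probes these medians were 0.02, -0.08 and -0.04. The first couple held the largest difference in 33 of 59 genes, and the other couples in 13 each. Among 2990 tested probes the first couple held it in 42.1%, the next in 31.7% and the last in 26.2%. WT arrays 1 and 2 also had the most zeros, and their part in these sizes was not tested. With arrays 3 to 6 alone the median difference was 1.16, where 19.9% of all probes were fully separated and 18.8% passed in limma as higher in psao.

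The 4 genes that passed in limma with each couple averaged were AT5G46560, AT1G72020, AT3G57440 and AT1G27610. Their differences there were 2.88 ± 0.34, 1.97 ± 0.31, 1.57 ± 0.28 and 2.34 ± 0.34 (SE). AT5G46560, AT1G72020 and AT3G57440 also passed with each couple as a random block. AT1G27610 did not, and its SE there was 2.15 times that of the fit with independent arrays. Full separation of couple means with psao on top held for 16.9% of all probes. With the array number as a block, 58 passed, against 16.4% of all probes, and AT2G38570 and AT1G76220 joined AT4G33760 and IYO among those that did not. Whether a couple is 1 RNA measured again is not given in the sources used here.

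**Figure D4:**
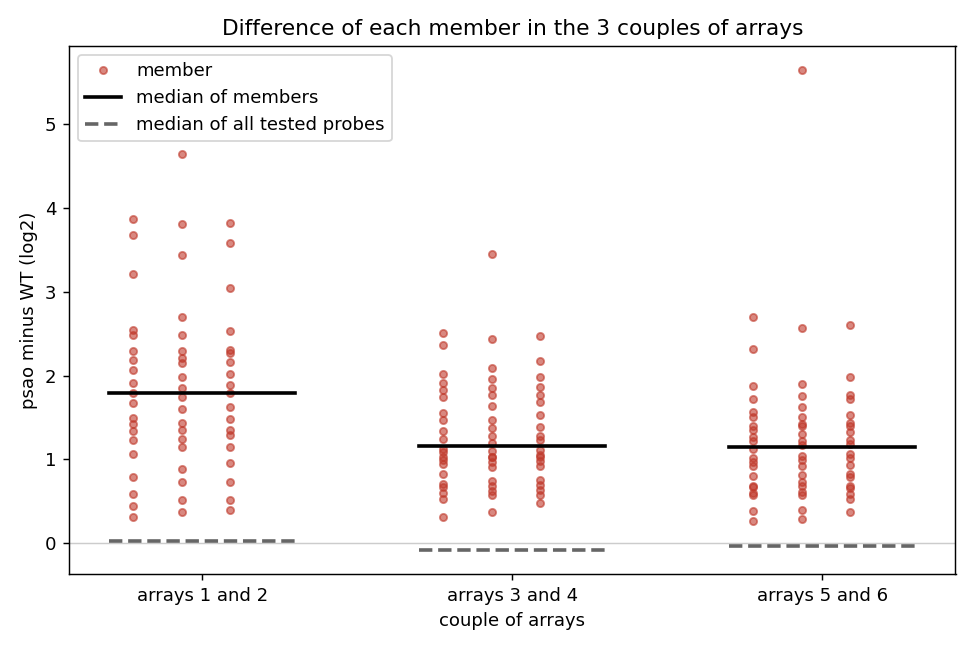
Difference psao minus WT in log2 units (y axis) of each gene (points) in arrays 1 and 2, 3 and 4, and 5 and 6 (x axis), with the medians of the genes and of all tested probes. The medians of the genes are 1.79, 1.16 and 1.15, and the highest point is AT5G40030 in arrays 5 and 6, 5.65.

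The genotypes of 39 of the 62 genes stayed apart under all 5 scalings tried, among them quantile normalization, the scaling of the rule. The share of all probes apart under all 5 is not given here, so nothing is read from this count. By single scaling, 61 genes stayed apart with values as deposited and 43 with each array centred on its median. With cyclic loess 56 did, and 53 with an offset of 0.0227 before the log. In this order, 16.4%, 7.91%, 10.4% and 8.78% of all probes were so separated. The median difference of all probes was 0.43 with values as deposited, and between -0.08 and -0.03 under the other 4 scalings. Relative to that median, the 62 genes stood higher in psao by 1.34 with values as deposited, 1.32 with median centring, 1.41 with cyclic loess, 1.38 with the offset and 1.43 with quantile normalization. With values as deposited 23.9% of all probes passed in limma as higher in psao, and 77.4% of all calls were higher, against 49.7% of calls after quantile normalization.

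By the chromosome in their locus names, 12 of the genes were on chromosome 1, 9 on 2, 12 on 3, 13 on 4 and 16 on 5. These were 7.74%, 7.44%, 10.3%, 11.3% and 13.3% of the tested 1-gene probes of each chromosome. The 10 separated loci that were left out are not counted among the genes here, but stay among the tested probes. None of the 62 lay within 2 coding genes of another in the RefSeq gene table. How many such pairs as many randomly placed genes would hold was not worked out, so nothing is read from this. Across pairs of the 62 genes, deviations from the genotype means correlated over the 12 arrays with a median r of 0.10, against 0.02 across pairs of all 628 tested 1-gene probes. The points of each such correlation share the arrays and their couples.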

How the data were processed

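Total RNA of 6 psao and 6 WT arrays had been measured, per the labels. The authors' deposited values are 1 intensity per probe and array for 3439 probes. They are never negative, hold exact zeros and reach 100 on every array. The steps before that scaling, array design and dyes are not given in the sources used here. For arrays, their number limits the precision.

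Groups and array numbers came from the sample titles. Log2 intensities, with zeros missing, were normalized to common quantiles (limma 3.58.1, R 4.3.3), and 3187 probes with at least 4 values per genotype were tested. Differences and SEs come from lmFit and eBayes, two-sided, with Benjamini-Hochberg adjustment over all probes and a threshold of 0.05. Couples were also taken as a random block (statmod 1.5.0).

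The platform annotation paired 692 probes with 1 gene and 870 with several, and did not list 1877. All 692 matched the RefSeq table of assembly TAIR10.1. That table gives symbols and synonyms but no descriptions, so the keyword classes planned for roles matched 1 of the 62 genes, CML41, and were not used. Roles are background knowledge and are given only for genes that the table names. Coordinates are not printed, since the build behind the array is not given in the sources used here, and promoter and protein sequences were not analysed here.

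The genes, lists and tests were chosen with earlier results of these data known. By the rule for named genes, every gene is named. Levels are given for the 12 with the widest gap, the 3 with the narrowest, the 3 with the highest WT probe signal and, just outside, 3 with the narrowest overlap. Levels of other genes were added after their values were seen.

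WT and psao share the numbers 1 to 6. Deviations of same-numbered arrays correlated with r from 0.14 to 0.24, which met the criterion for pairing, every r over 0.1. What a number means is not stated. Values for differently numbered arrays are not given here, so pairing by number cannot be told from a wider array effect. The main fit leaves the pairing out, and the array number as a block is given as an alternative. Deviations of the arrays of a couple correlated with r from 0.29 to 0.47. Alternatives covered scaling, zeros, dim probes, the number of values needed, arrays 1 and 2, couples, the block, variance settings and leaving out each array.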

Additional observations from a re-analysis of the deposited data

Results flagged for a closer look

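Among the 124 sets of levels of the 62 genes, 1 per genotype and gene, 9 held an array far from the others of its genotype by the gap to its nearest neighbour relative to the whole range. Chance flags about 1 in 20 such sets where arrays are independent and genes are not selected, and neither is given here. Of the 9, 8 were WT sets, 5 of them on WT arrays 1 and 2, and in all 9 the array lay low. The rule leaves out genes with a WT array high enough to reach psao, so low WT arrays are favoured by the choice. The share flagged over all tested probes is not given here, and nothing is read from these counts. In IYO, WT replicate 1 stood at -8.87 log2 units with its nearest neighbour at -2.16. In AT2G37750, WT replicate 2 stood at -5.49, nearest -2.99, and in AT3G56810, WT replicate 3 stood at -5.22, nearest -3.53. Smaller distances were found in AT5G11650 (WT replicate 1 at -3.68, nearest -2.55), in AT4G21170 (WT replicate 1 at -2.45, nearest -1.68) and in AT2G11270 (WT replicate 6 at -0.83, nearest -0.07). AT3G52550, with 4 WT values, had WT replicate 4 at -4.04, nearest -3.35, and AT1G74070 had WT replicate 2 at -1.07, nearest -0.78. The psao set was AT3G19120, where psao replicate 4 stood at -1.11, nearest -0.86.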

How the results depend on the processing

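All 62 genes kept a higher mean in psao under every alternative in which they had values, a direction their choice favours. With values as deposited, 116 1-gene probes and 524 of all probes were separated with psao on top (72 and 325 after quantile normalization), the median difference of the genes was 1.77 against 1.39, and 763 probes passed in limma as higher in psao against 472. With arrays 3 to 6 alone, fewer arrays had to stay apart: 134 1-gene probes and 599 probes were separated, and the median difference was 1.16. Couples averaged gave 505 separated probes, 51 calls higher in psao and 4 of 59 genes called. Couples as a random block gave 188 calls and 36 genes. The median difference was 1.24 with median centring and 1.24 with array weights; the cause was not tested. Leaving out each array in turn gave 59 to 62 genes, 68 to 81 1-gene probes and 316 to 357 probes separated, a median difference of 1.27 to 1.51, 391 to 463 calls and 56 to 61 genes called. Every one of the genes that kept at least 4 values per genotype stayed separated, which the rule all but fixes. The count of 59 is the number of genes that kept enough values. With the array number as a replicate block, 523 probes and 58 genes passed, without AT2G38570 and AT1G76220, and it changed the call of no other gene. Zeros counted as lowest, added after seeing the data, left 62 genes, 71 1-gene probes and 323 probes separated. For the 62 genes this outcome was fixed, since all their zeros lie in WT. Differences of single genes moved by over 1.5 times in 11 genes with median centring, 7 with arrays 3 to 6, 5 with values as deposited, 4 with the offset, 3 with array weights and 2, IYO and AT5G11010, without WT replicate 1. The depth of signal over background is unknown, since the deposited values are relative within an array.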
